A study of Mus musculus with 12 samples.

Results

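Macrophage transcripts in sorted satellite cells were followed through 10 genes, *Csf1r*, *Adgre1*, *Mrc1*, *Cd14*, *Cd68*, *Lyz2*, *C1qa*, *C1qb*, *C1qc* and *Spp1*, taken by symbol from a count table of 25093 genes. The genes were selected on earlier results of these same data, namely their measured levels by state and genotype, so levels and differences are given as a description and support nothing further. Satellite cells, the stem cells of skeletal muscle, were sorted from hindlimb muscles of mice aged 3 to 4 months and their polyadenylated RNA was sequenced in 12 libraries, 3 for each genotype and state. All mice carried Pax7-CreERT2/+ and R26R-YFP and were given tamoxifen. Control mice were Gli3+/+ and the others Gli3fl/fl, called Gli3Δ/Δ after tamoxifen, with the recombinase driven from the *Pax7* locus of satellite cells and therefore not meant to act in macrophages. Quiescent satellite cells (QSCs) came from uninjured muscle through an α7-integrin+ and CD34+ gate, and each QSC library combined several mice. Activated satellite cells (ASCs) came from muscle taken 3 days after cardiotoxin through an α7-integrin+ and VCAM1+ gate, and each ASC library was from 1 mouse. Cells positive for CD31, CD45, SCA1 or CD11b were discarded in both sorts.

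Macrophages are phagocytes of the myeloid lineage. A small resident population lives between the fibers of resting muscle, and after injury blood monocytes enter in large numbers, become macrophages, clear dead fibers and release factors that act on satellite cells. CD45 marks all leukocytes and CD11b most myeloid cells, so both sorting gates were set to leave macrophages out.

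The 6 QSC libraries held 39556784 to 65750131 estimated counts. The table columns of the 6 ASC libraries show the state but neither genotype nor replicate and were not used for values by library, so ASC genotypes were not compared. Titles and other labels name different genotypes for 2 of the ASC samples. Satellite cell markers were high in every QSC library, with *Pax7* at 798 to 1157 CPM (counts scaled to a common library size, here after TMM normalization). The genes of the QSC gate were high too, with means of 456 CPM for *Itga7* and 241 CPM for *Cd34*, but the sort selected for their products. *Vcam1*, of the ASC gate, was at a mean of 654 CPM. *Gli3* was at 9.54, 10.5 and 6.25 CPM in Gli3Δ/Δ against 11.2, 9.71 and 9.75 CPM in Gli3+/+ QSCs, but counts per gene do not separate the deleted exon and so do not check the genotype. Gli3+/+ library 1 stood apart: it had the fewest counts and the highest summed level of macrophage, neutrophil, erythroid and endothelial genes. The main results below for the 10 genes that rest on it are therefore also given without it. The comparison of the other lists with the mean over all libraries, and the search for the nearest profiles, are given with all 6 QSC libraries only. In bulk RNA, fewer cells of a type and less RNA per cell cannot be told apart.

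The receptors that define the lineage were close to the detection limit in QSCs. *Csf1r*, the receptor for the growth factors CSF1 and IL-34 on which macrophages depend, was at 1.24, 0.119 and 0.487 CPM in Gli3+/+ libraries 1 to 3 and at 1.49, 0.537 and 0.118 CPM in Gli3Δ/Δ libraries 1 to 3. These values stand for only 6 to 78 counts, library 1 of both genotypes was high, and the groups overlapped. Its last exons overlap those of *Hmgxb3* on the opposite strand, a gene at 54.0 to 82.6 CPM, so the level of *Csf1r* is uncertain to the extent that reads there were assigned to the wrong gene. The library kit was directional, so reads carry their strand, but whether the counting used it is not given. Of its ligands, *Csf1* was at 36.4 to 38.4 CPM in 5 libraries and at 82.6 CPM in Gli3+/+ library 3, and *Il34* at 2.27 to 3.87 CPM in the same 5 and at 29.2 CPM in Gli3+/+ library 3. Both ligands thus peaked in another library than the receptor.

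*Adgre1* encodes F4/80, the surface receptor by which mouse macrophages are commonly stained. It was at 0.571, 0.0741 and 0.0464 CPM in Gli3+/+ and at 0.534, 0.224 and 0.0983 CPM in Gli3Δ/Δ libraries 1 to 3, again with library 1 of each genotype on top. *Mrc1*, the mannose receptor CD206 of resident and repair-type macrophages, was at 1.89, 0.0445 and 0.557 CPM in Gli3+/+ and at 0.897, 0.522 and 0.570 CPM in Gli3Δ/Δ libraries. The Gli3+/+ libraries of *Mrc1* spanned 76, 3 and 24 counts and enclosed all the Gli3Δ/Δ values. *Cd14*, the co-receptor that hands lipopolysaccharide to TLR4, was at 2.04, 0.697 and 0.627 CPM in Gli3+/+ and at 0.782, 0.850 and 0.649 CPM in Gli3Δ/Δ libraries. Here Gli3+/+ library 1 was alone in being high, and the other 5 libraries lay together between 0.627 and 0.850 CPM.

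*Cd68* did not share this pattern. It encodes a glycoprotein of lysosomes and endosomes that is abundant in macrophages, and it was at 7.62, 9.09 and 6.98 CPM in Gli3+/+ and at 5.97, 6.04 and 6.94 CPM in Gli3Δ/Δ libraries 1 to 3. All libraries lay within a narrow range, the highest was Gli3+/+ library 2, and the lowest Gli3+/+ library was just above the highest Gli3Δ/Δ library. Scaled to library totals instead, the groups overlapped, with 7.76, 9.38 and 6.4 CPM in Gli3+/+ against 6.03, 6.16 and 7.0 CPM in Gli3Δ/Δ. The SD of log2(CPM + 0.5) over the 6 libraries was 0.21 for *Cd68*, against a median of 0.22 over all genes. For the other 9 genes it ran from 0.43 (*Adgre1*) to 1.81 (*Spp1*).

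*Lyz2*, which encodes the lysozyme of macrophages and neutrophils, was at 13.0, 2.71 and 3.36 CPM in Gli3+/+ and at 6.91, 5.15 and 2.60 CPM in Gli3Δ/Δ libraries. Gli3+/+ library 1 was the highest by far, and the other Gli3+/+ libraries lay among the Gli3Δ/Δ ones. Its near-identical paralog *Lyz1*, with which reads could be shared, was at 0 to 0.372 CPM.

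The 3 chains of C1q, which join into the recognition molecule of the classical complement pathway, were detected at 78 counts at most per library, and their genes lie side by side. They cover 18675 bases on the minus strand of chromosome 4 of GRCm38, with *C1qb* at 136880129 to 136886187, *C1qc* at 136889804 to 136893065 and *C1qa* at 136895917 to 136898803. *C1qa* was at 0.819, 0.0148 and 0.162 CPM in Gli3+/+ and at 0.439, 0.552 and 0.0983 CPM in Gli3Δ/Δ libraries 1 to 3. *C1qb* was at 1.94, 0.0148 and 0.0696 CPM in Gli3+/+ and at 0.763, 0.567 and 0.275 CPM in Gli3Δ/Δ libraries. *C1qc* was at 0.596, 0 and 0.139 CPM in Gli3+/+ and at 0.515, 0.298 and 0.433 CPM in Gli3Δ/Δ libraries. Each chain was highest in Gli3+/+ library 1 and lowest in Gli3+/+ library 2, where they had 1, 1 and 0 counts, so that the Gli3+/+ group enclosed the Gli3Δ/Δ group. The 0 for *C1qc* allows up to 0.0445 CPM, the level of 3 counts in that library, for counting error only.

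*Spp1* was the most uneven of the 10. It encodes osteopontin, a secreted phosphoprotein that binds integrins and CD44 and is made by macrophages of injured tissue as well as by other cells. Its level was 37.6, 2.10 and 2.18 CPM in Gli3+/+ and 3.09, 0.507 and 1.34 CPM in Gli3Δ/Δ libraries 1 to 3. Gli3+/+ library 1 held 1516 counts against 34 to 162 in the other 5 libraries, 20.4 times their mean in CPM, and the groups overlapped.

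**Figure D1:**
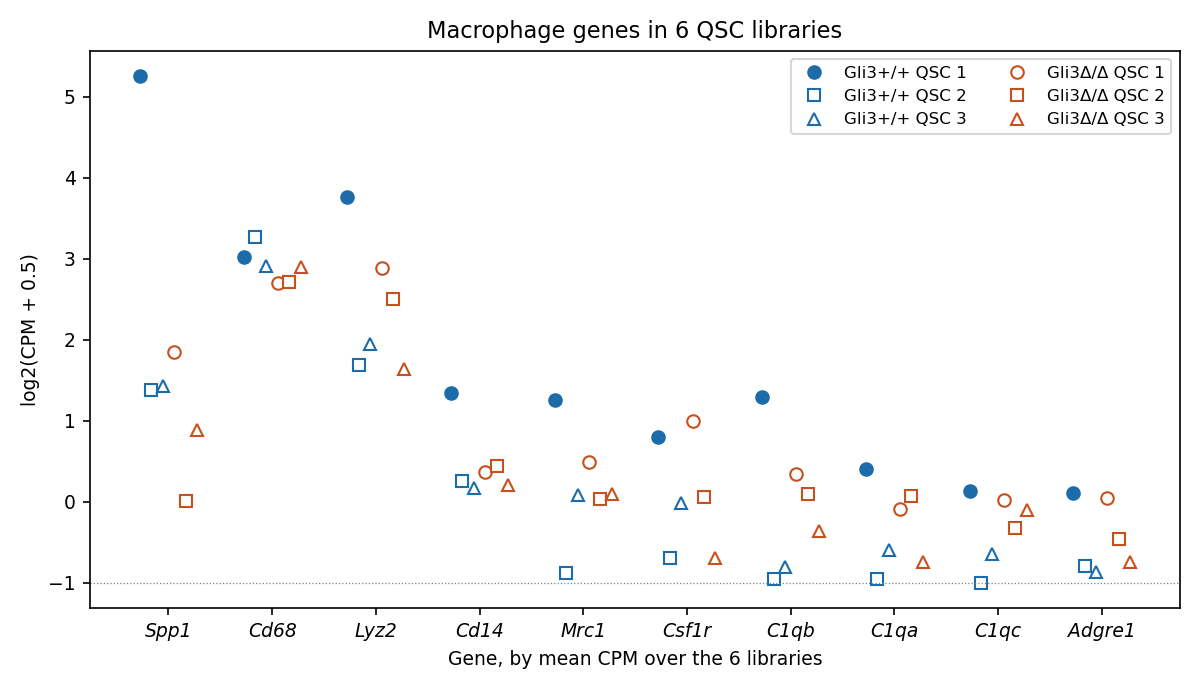
Level of each macrophage gene in the 6 QSC libraries as log2(CPM + 0.5), with genes in order of mean CPM. Each point is 1 library, blue for Gli3+/+ and orange for Gli3Δ/Δ, Gli3+/+ library 1 is the filled circle, and the dotted line marks 0 counts. The filled circle is on top for 8 of the 10 genes, and the exceptions are *Cd68* and *Csf1r*.

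Promoter windows of 250 bases before a RefSeq gene start were at hand for 6 of the genes, and those of *C1qb*, *C1qc*, *Spp1* and *Cd68* are printed because they set genes that moved with Gli3+/+ library 1 beside *Cd68*, which did not. They are RefSeq sequences on GRCm38.p6, read 5′ to 3′ along the gene, at chr4:136886201-136886450 (minus strand) for *C1qb*, chr4:136892915-136893164 (minus strand) for *C1qc*, chr5:104434861-104435110 (plus strand) for *Spp1* and chr11:69666171-69666420 (minus strand) for *Cd68*. The RefSeq start of *C1qc* lies within the GENCODE gene given above, so 151 bases of its window are inside that gene, while the other windows printed lie outside theirs. Capitals mark GAGGAA, the core of the site of the myeloid factor PU.1, or its reverse complement TTCCTC, and TGANTCA, the site of AP-1, searched on both strands, with no overlap between the 2 motifs.

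C1qb: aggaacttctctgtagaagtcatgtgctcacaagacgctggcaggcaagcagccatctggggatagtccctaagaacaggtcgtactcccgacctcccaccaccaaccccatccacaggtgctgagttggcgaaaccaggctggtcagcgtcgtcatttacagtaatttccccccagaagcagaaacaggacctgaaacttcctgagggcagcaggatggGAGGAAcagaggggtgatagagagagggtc
C1qc: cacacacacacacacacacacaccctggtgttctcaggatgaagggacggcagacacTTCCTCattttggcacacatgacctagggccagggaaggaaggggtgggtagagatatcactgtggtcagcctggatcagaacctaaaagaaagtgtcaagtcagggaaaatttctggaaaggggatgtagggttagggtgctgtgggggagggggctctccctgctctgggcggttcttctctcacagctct
Spp1: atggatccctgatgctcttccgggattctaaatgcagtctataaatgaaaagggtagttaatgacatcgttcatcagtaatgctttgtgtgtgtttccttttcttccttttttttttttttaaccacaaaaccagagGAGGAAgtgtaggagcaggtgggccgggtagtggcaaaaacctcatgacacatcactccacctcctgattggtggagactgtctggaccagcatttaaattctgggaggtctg
Cd68: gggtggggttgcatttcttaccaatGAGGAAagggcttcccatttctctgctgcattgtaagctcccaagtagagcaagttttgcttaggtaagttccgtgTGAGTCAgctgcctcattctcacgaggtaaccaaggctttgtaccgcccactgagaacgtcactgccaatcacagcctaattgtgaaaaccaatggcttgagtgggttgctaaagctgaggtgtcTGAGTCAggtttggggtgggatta

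The PU.1 core was found once each in the windows of *C1qb*, *C1qc*, *Spp1* and *Cd68*, 3 times in that of *Mrc1*, and not in that of *Lyz2* or in a second window of *Spp1*. Of all 32851 windows of this length, 23.3% held it. The AP-1 motif was found 2 times in the *Cd68* window and in none of the others, and 6.75% of all windows held it. A match of letters describes the window and is no evidence of binding.

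Between genes, levels can be compared only per length of exon. On this scale of mean CPM per kilobase over the 6 QSC libraries, *Cd68* (5.66), *Spp1* (4.74) and *Lyz2* (4.27) came first, followed by *C1qb* (0.556), *Cd14* (0.543), *C1qa* (0.334), *C1qc* (0.171), *Mrc1* (0.117), *Csf1r* (0.115) and *Adgre1* (0.0797). The step from *Lyz2* to *C1qb*, 3.72 CPM per kilobase, was the only one between neighbours in this order that exceeded the larger of their SDs over libraries, which was 3.02. Without Gli3+/+ library 1, *Spp1* fell to 1.12 CPM per kilobase and below *Lyz2* at 3.15, while *Cd68* was at 5.57. *C1qb* then lay at 0.311, below *Cd14* at 0.416, and *Mrc1* at 0.0813, below *Csf1r* at 0.0952.

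The unevenness was greatest in 1 library. Gli3+/+ library 1 was the highest library for 8 of the 10 genes, where 15.3% of all genes were highest in it. *Cd68* was highest in Gli3+/+ library 2 and *Csf1r* in Gli3Δ/Δ library 1. Among the Gli3Δ/Δ libraries, library 1 was the highest for *Mrc1*, *Lyz2*, *Adgre1*, *Csf1r*, *C1qb*, *C1qc* and *Spp1*, but not for *Cd68*, *Cd14* and *C1qa*. The CPM of Gli3+/+ library 1 divided by the mean of the other 5 had a median of 3.03 over the 10 genes and of 0.976 over all genes. It was 1.09 for *Cd68*, lay between 2.15 (*C1qc*) and 5.73 (*C1qb*) for 8 genes, and was 20.4 for *Spp1*. Summed over the 10 genes, the level was 67.4, 14.9 and 14.6 CPM in Gli3+/+ and 21.4, 15.2 and 13.1 CPM in Gli3Δ/Δ libraries, so that the Gli3+/+ mean of 32.3 ± 30.4 CPM (SD, n = 3) came down to 14.7 CPM without library 1, against 16.6 ± 4.30 CPM (SD, n = 3) in Gli3Δ/Δ.

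The first comparison of the design asks what the loss of *Gli3* does to quiescent cells. None of the 10 macrophage genes was called (0 of 10) by edgeR, for which the adjusted p had to be under 0.05 and the fold at least 1.2, where 0.351% of all genes were called, 0.187% as higher and 0.163% as lower in Gli3Δ/Δ. DESeq2 called 0 of 10 too, where it called 1.53% of all genes, and gave *Spp1* no adjusted p. limma-voom called 0 of 10, where it called 0.291% of all genes. At an unadjusted p under 0.05, edgeR had 1 of the 10 (*Spp1*), where it had 7.11% of all genes, and limma-voom had 0. DESeq2 had 0 too, but it left *Spp1*, with a log2 fold change of -3.08 (SE 1.39), without a p. Its 0 therefore does not cover *Spp1*. The log2 fold change of Gli3Δ/Δ over Gli3+/+ was above 0 for 4 and below 0 for 6 of them, with a median of -0.30 against -0.03 over all genes.

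*Spp1* had the largest difference, a log2 fold change of -3.09 (SE 1.15, adjusted p = 0.591), from group means of 14.0 ± 20.5 CPM in Gli3+/+ and 1.65 ± 1.32 CPM in Gli3Δ/Δ (SD, n = 3 each). Without Gli3+/+ library 1 it was -0.39 (SE 0.62), so that library set its size. *Cd68* had the smallest standard error, with 7.90 ± 1.08 CPM in Gli3+/+ and 6.32 ± 0.541 CPM in Gli3Δ/Δ (SD, n = 3 each) and a log2 fold change of -0.32 (SE 0.19, adjusted p = 0.834). It was the only 1 of the 10 whose groups did not overlap, where 13.0% of all genes did not, 6.57% with Gli3Δ/Δ lower and 6.39% with Gli3Δ/Δ higher. The groups of *Cd68* were also apart without library 1, at -0.35 (SE 0.23), but not when scaled to library totals.

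For the surface receptors the errors were large beside the differences. The log2 fold change was -0.30 (SE 0.92) for *Mrc1*, -0.55 (SE 0.49) for *Cd14*, 0.34 (SE 0.99) for *Adgre1* and 0.24 (SE 0.93) for *Csf1r*. Among the secreted proteins it was -0.37 (SE 0.59) for *Lyz2*, 0.18 (SE 1.07) for *C1qa*, -0.30 (SE 1.23) for *C1qb* and 0.81 (SE 1.07) for *C1qc*. The adjusted p of these 8 genes ran from 0.907 to 0.999.

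Leaving out Gli3+/+ library 1 moved the balance the other way, to 8 of 10 genes with a log2 fold change above 0, where 45.9% of all genes had one, and to a median of 1.23. That library was the highest for most of the 10 genes, so a shift upward was fixed by its removal. *C1qb* then had a log2 fold change of 3.72 (SE 0.91, adjusted p = 0.263, the lowest of its alternatives, which reach 1), *C1qc* 2.68 (SE 1.15), *Adgre1* 2.17 (SE 1.01) and *C1qa* 2.12 (SE 1.12). Gli3+/+ libraries 2 and 3 held only 1 and 3 counts of *C1qb*, 0 and 6 of *C1qc*, 5 and 2 of *Adgre1* and 1 and 7 of *C1qa*. The size of these 4 fold changes thus rests on very few counts. *Csf1r* was at 1.27, *Mrc1* at 1.19, *Lyz2* at 0.69 and *Cd14* at 0.20. *Adgre1*, *C1qb* and *C1qc* were then higher in all Gli3Δ/Δ libraries than in both remaining Gli3+/+ libraries, as were 11.1% of all genes, and *Cd68* was lower, as were 11.5%. None was called with or without library 1. Leaving out library 1 turned the sign for *Mrc1*, *Cd14*, *Lyz2* and *C1qb*. Leaving out others of the 6 libraries turned it for *Adgre1*, *Csf1r*, *C1qa* and again *C1qb*.

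**Figure D2:**
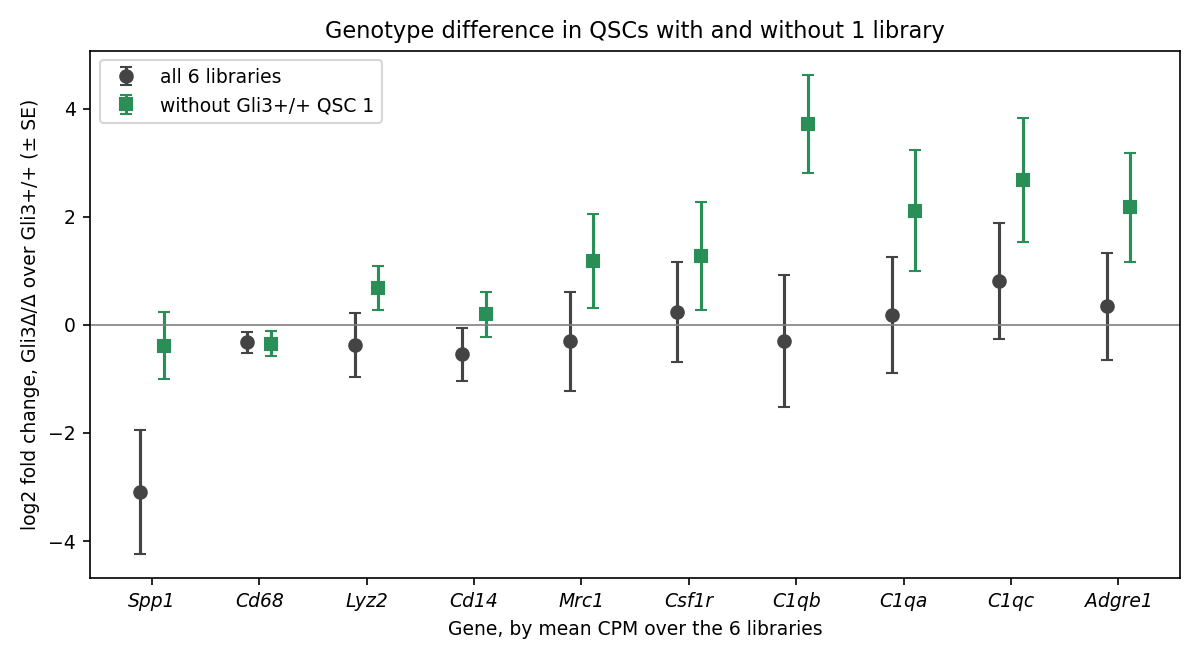
Log2 fold change of Gli3Δ/Δ over Gli3+/+ QSCs with its standard error for each macrophage gene, from all 6 libraries (grey circles) and without Gli3+/+ library 1 (green squares). *Spp1* moves from -3.09 to -0.39, *Cd68* stays at -0.32 and -0.35, and *C1qb* moves from -0.30 to 3.72, with 1 and 3 counts in the remaining Gli3+/+ libraries.

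Other genes of the myeloid lineage were looked at by lists, and no gene of these lists was called by edgeR, where 0.351% of all genes were. The 12 core myeloid genes summed to 22.9 CPM in Gli3+/+ library 1 and to 8.61 to 12.9 CPM in the other 5. Of the 12, 10 were highest in library 1, where 15.3% of all genes were. Among them *Cybb*, a subunit of the phagocyte oxidase, was at 2.41 CPM there against a mean of 0.472 CPM in the others. *Irf8*, a transcription factor of the lineage, was at 6.58 against 5.40 CPM and so was much more even. *Aif1*, at very low levels throughout, went the other way, with 0.0497 CPM in library 1 against a mean of 0.158 CPM in the others. Resident macrophage genes summed to 34.3 CPM in library 1 and 21.6 to 28.8 CPM in the others, with 9 of 11 highest there. That sum was mostly *Mertk*, a receptor for dying cells, at a mean of 19.9 CPM. Recruited monocyte genes summed to 53.4 against 37.1 to 48.2 CPM, with 7 of 9 highest in library 1, and *Gpnmb*, a lysosomal glycoprotein, made up most of it at a mean of 38.4 CPM. *Mertk* in library 1 was 0.992 times and *Gpnmb* 1.02 times the mean of the other 5.

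The genes of the exclusion gates behaved in different ways. *Ptprc*, which encodes CD45, was at 2.11 CPM in Gli3+/+ library 1 and at 0.252 to 0.763 CPM in the other 5 libraries. *Itgam*, which encodes CD11b, was at 1.54 CPM in library 1 and at 0 to 0.801 CPM in the others, with no count in Gli3Δ/Δ library 3. *Pecam1* (CD31) was at 22.5 to 40.0 CPM and *Ly6a* (SCA1) at 4.21 to 8.34 CPM. For *Ptprc*, *Itgam* and *Ly6a* the highest library was again Gli3+/+ library 1.

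Lists of several other cell types were also high in that library. The summed level in Gli3+/+ library 1 divided by the mean of the other 5 was 4.25 for the macrophage genes, 4.13 for erythroid genes, 3.15 for neutrophil genes, 2.19 for core myeloid genes, 1.45 for endothelial genes and 1.36 for genes induced by dissociation. *Spp1* alone made up 55.9% of the macrophage sum in library 1, and without it the ratio was 2.12. For Schwann cell genes it was 1.48, but their sum was highest in Gli3+/+ library 3 and low in all Gli3Δ/Δ libraries. It was 0.928 for lymphocyte genes, 0.923 for satellite cell genes, 0.825 for fibro-adipogenic genes, 1.29 for mural cell genes and 0.775 for myofiber genes. All 5 erythroid genes, 7 of 8 neutrophil genes and 5 of 7 endothelial genes were highest in library 1, against 1 of 7 satellite cell genes and 15.3% of all genes. *Hbb-bs*, a globin gene, was at 154 CPM there and at 14.1 to 69.9 CPM elsewhere, and *S100a9*, a calcium-binding protein of neutrophils, at 9.46 CPM there and at 0 to 4.48 CPM elsewhere. The part of these cell types in the level of the macrophage genes was not tested.

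**Figure D3:**
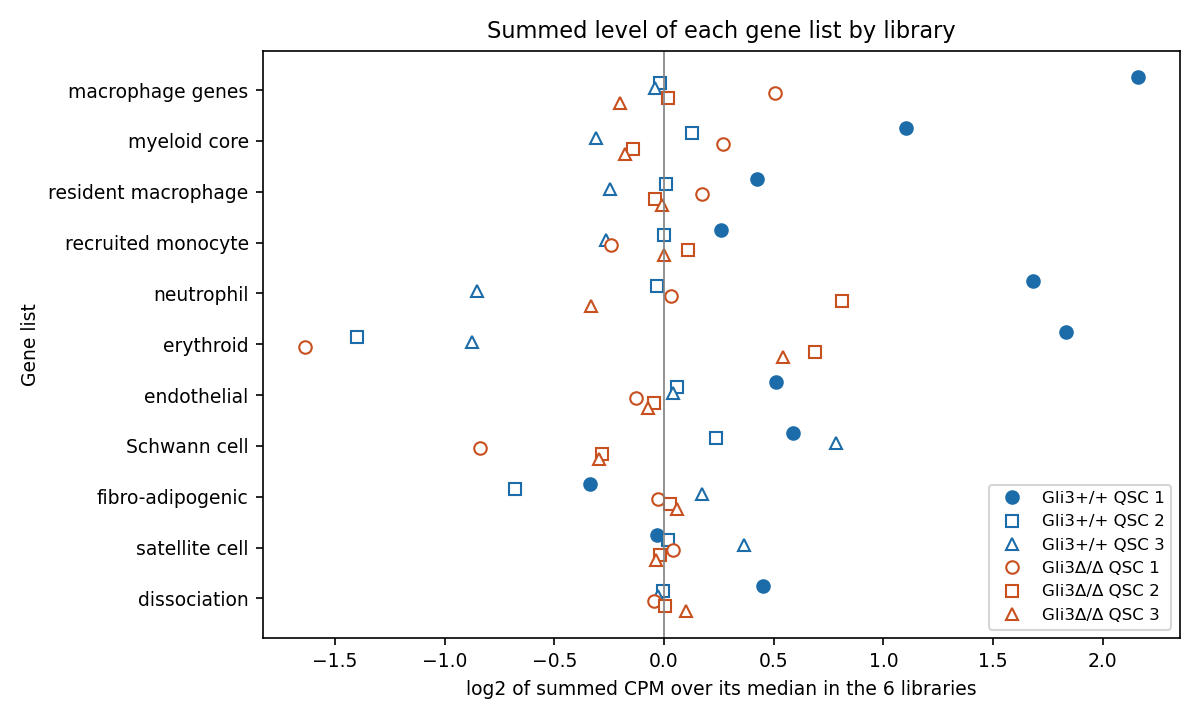
Summed CPM of each gene list in each QSC library, as log2 over the median of the 6 libraries. Points and colours stand for libraries as in the plot of single genes. Gli3+/+ library 1 (filled circle) is on the far right for the macrophage, myeloid, neutrophil, erythroid and endothelial lists and near 0 for the satellite cell list.

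Genes whose products act with those of the 10 were also measured. Of the further genes of classical complement, *Serping1* was at a mean of 498 CPM and *C1ra* at 38.6 CPM. Of the genes that act with CD14, *Lbp* at a mean of 97.0 CPM, *Myd88* at 47.5 CPM and *Tlr4* at 37.6 CPM were present throughout. *Tlr2* was lower, at 4.11 CPM, and *Ly96* was as low as many of the macrophage genes, at 0.435 CPM. The receptors of osteopontin *Itgb1*, *Itgav* and *Cd44* were at 590, 63.7 and 54.5 CPM, and the lysosomal genes *Ctsl*, *Ctsb* and *Lamp2* at 391, 337 and 320 CPM. The summed level in library 1 over the mean of the other 5 was 0.986 for the CD14 partners, 0.984 for the osteopontin receptors and 0.967 for the lysosomal genes.

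The second question of the design is how activation after injury changes satellite cells. The deposited comparison tables carry 1 mean of normalized counts per gene over all libraries, QSC and ASC of both genotypes, without saying how many entered it. It was set beside the mean normalized count of the 6 QSC libraries, and the ratio is a description without error or test. The QSC libraries enter both means, so a gene absent from ASCs keeps a sizeable ratio, while a rise has no upper bound. The ratio cannot show which ASC libraries, or which genotype, carried the counts. Its median over all genes was 0.921, with a 5th percentile of 0.518 and a 95th percentile of 6.91.

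All 10 macrophage genes lay above the highest QSC library in the mean over all libraries, as did 25.4% of all genes, and for 9 of 10 the mean was at least 10 times the QSC mean, as for 3.84% of all genes. Without Gli3+/+ library 1 it was also 9 of 10, as for 3.82% of all genes. *Adgre1* was at 1902 over all libraries against 13.5 in QSCs, 141 times as much, or 186 times without Gli3+/+ library 1 in the QSC mean. *Spp1* was at 45425 against 408 (111 times), but 472 times without that library, so the order of these 2 genes turned with it. *Csf1r* was at 2398 against 34.8 (69.0 times, 83.5 without library 1) and *Lyz2* at 19239 against 294 (65.5 times, 89.0 without it).

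The C1q chains had ratios of 61.9 (*C1qa*), 64.7 (*C1qb*) and 64.5 (*C1qc*) with all 6 QSC libraries, and of 85.0, 116 and 76.8 without Gli3+/+ library 1. For *Mrc1* the mean over all libraries was 2073 against 39.0 (53.2 times, 76.6 without library 1), and for *Cd14* it was 1546 against 49.1 (31.5 times, 41.1 without it). *Cd68*, the gene that was even in QSCs, had the smallest ratio of the 10, with 1854 against 371 (5.0 times), and 5.08 times without library 1. In the order of all 25093 genes, *Spp1* stood at rank 88 over all libraries and at rank 10170 in QSCs (13244 without library 1), and *Lyz2* at rank 335 and 10920. The other 8 genes stood at ranks 4672 to 7644 over all libraries and at ranks 10393 to 18495 in QSCs.

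**Figure D4:**
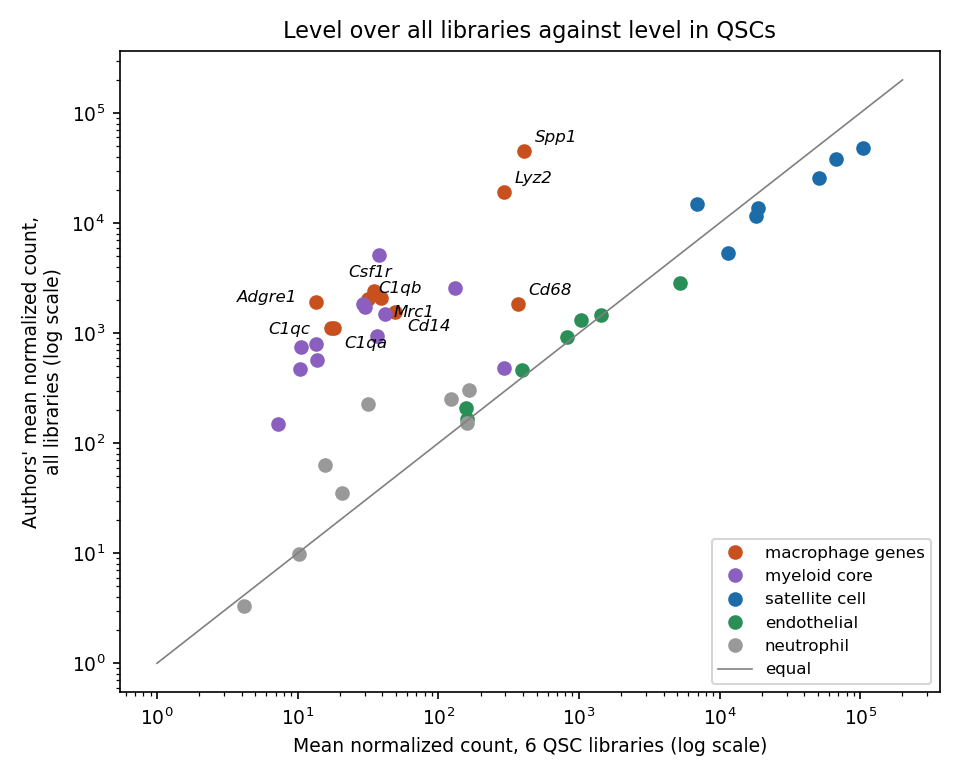
Deposited mean normalized count over all libraries against the mean normalized count of the 6 QSC libraries, both on log axes, with the line of equal values. The QSC libraries enter both means, so a fall in ASCs takes a gene only a short way below the line. The macrophage genes (orange, named) and most core myeloid genes (purple) lie far above the line, *Cd68* lies nearer to it at 5.0 times, and satellite cell, endothelial and neutrophil genes lie on or nearer to it, with medians of 0.561, 1.13 and 1.76 times.

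Most other myeloid genes also had ratios of 10 or more. The median ratio was 43.4 for the core myeloid genes, 11 of 12 of which reached 10, with *Irf8* at 1.67 as the exception. For resident macrophage genes it was 34.2, with 10 of 11 at 10 or more and *Mertk* at 1.06. For recruited monocyte genes it was 16.2, with 6 of 9 at 10 or more, *Lgals3*, which encodes galectin-3, at 93.0 and *Gpnmb* at 3.86. The genes of the exclusion gate had ratios of 34.0 for *Ptprc* and 55.0 for *Itgam*, but of 1.26 for *Pecam1* and 1.74 for *Ly6a*. The ratios of these lists were not computed without Gli3+/+ library 1.

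Lists of other cells had medians inside the 5th to 95th percentile range of all genes, while that of the genes induced by dissociation lay just below it. The median ratio was 1.76 for neutrophil genes, 1.5 for lymphocyte genes, 1.13 for endothelial genes, 1.11 for fibro-adipogenic genes, 1.09 for erythroid genes, 1.99 for mural cell genes, 2.20 for Schwann cell genes and 1.27 for myofiber genes. It was 0.561 for satellite cell genes, with *Pax7* at 0.507 and *Myod1*, a regulator of activated satellite cells, at 2.16, and 0.50 for genes induced by dissociation. Ratios below the median of all genes do not measure how far a gene fell in ASCs. Among the partners of the 10 genes, *Csf1* had a ratio of 4.6, *Il34* of 2.73, *Cd44* of 7.96, *C3* of 5.67, *Tlr2* of 2.97 and *Ctsd* of 2.85, whereas *Serping1* was at 0.497. The part of cell makeup in the level of the macrophage genes over all libraries was not tested.

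The genes whose profile over the 6 QSC libraries was nearest to that of the summed macrophage genes were found by the root mean square difference of centred log2(CPM + 0.5) values, among 14693 genes with a mean of at least 1 CPM. They were a gene without a symbol in the table (ENSMUSG00000097554.1, 0.25), *Cenpe* (0.32), *Prc1* (0.32), *Lgals3* (0.33) and *Plk1* (0.35), against a median of 0.83. *Cenpe*, *Prc1* and *Plk1* act in mitosis. *Prc1* was at 4.64, 0.978 and 0.975 CPM in Gli3+/+ and at 2.21, 1.87 and 1.14 CPM in Gli3Δ/Δ libraries 1 to 3, and *Lgals3* at 8.62, 2.05 and 3.62 CPM in Gli3+/+ and at 2.79, 2.13 and 2.26 CPM in Gli3Δ/Δ libraries. All 5 shared the peak in Gli3+/+ library 1, and the search was not repeated without that library. Of the 10 genes themselves, *Lyz2* (0.33) and *C1qb* (0.39) lay nearest to the sum and *Spp1* (0.92) and *Cd68* (0.80) farthest from it.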

How the data were processed

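RNA-sequencing data of 12 libraries were re-analysed from the processed files. The authors deposited estimated counts per gene, made with salmon on GRCm38 transcripts of GENCODE vM19 and summed with tximport, without normalization. By their methods only genes with a minimum of mapped reads in several samples were kept. The deposited comparison tables hold a mean signal per gene, an average by the authors of size-factor-scaled counts, which is identical in the 4 tables. They also hold the authors' log2 fold changes, standard errors and p-values, which were not used.

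Only the 6 columns of QSC libraries carry sample titles. The 6 other columns of values were not used, and 3 comparisons of the design (ASC genotypes, and ASC over QSC in either genotype) were not made. Of the deposited values used, 49.2% were not whole, since salmon shares reads among transcripts, and these were rounded. The 172 rows without a symbol kept their identifiers. QSC counts were tested with edgeR 4.0.16 in R 4.3.3: TMM normalization, quasi-likelihood test of group, Benjamini-Hochberg adjustment over 25093 genes, calls where the adjusted p was under 0.05 and the fold at least 1.2. Other settings tried were the Wald test of DESeq2 1.42.0, voom of limma 3.58.1 with quality weights per library, scaling by size factors in edgeR, a filter by filterByExpr or by 10 counts in each library, calls without a minimum fold, a block for the replicate number, and each library left out. filterByExpr passed 10 of the 10 macrophage genes, the count minimum 4. Same-numbered libraries of the 2 genotypes did not deviate together (correlations of -0.254, -0.0289 and -0.0574), so the numbers were not taken as pairs. QSC libraries were pools of mice, and whether pools of different libraries shared mice is not given, so p-values measure the spread between these libraries. Tested on simulated data in which 200 of 25093 genes were made to change, edgeR found 89% of those changed 4-fold and 44% of those changed 2-fold, with 12 false calls. The changed genes were drawn only from those with a mean of at least 1 CPM. Of the macrophage genes, only *Cd68*, *Lyz2* and *Spp1* reached that mean, so these shares do not cover the rest. The shares are averages over the drawn genes. Only 0.227% of all genes had a larger SD of log2(CPM + 0.5) over the libraries than *Spp1*, and 1.98% than *Lyz2*. The shares therefore cannot be applied to *Spp1* and *Lyz2* either.

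Library totals bound the precision: 3 counts, the most that a count of 0 allows, are 0.0445 CPM in the library where this was needed. Positions and exon lengths were read from GENCODE vM21, also on GRCm38, where 96.3% of the identifiers carry the same version, and promoter windows from RefSeq on GRCm38.p6. The macrophage genes and the 20 further lists were chosen with earlier results of these data known. The text names all 10 macrophage genes, every gene of the gate and CSF1 ligand lists, of each other list mainly the genes called and those highest in CPM, and the 5 genes nearest in profile. Other genes of the lists (*Aif1*, *Tlr2*, *Ly96*, *C3*, *Ctsd*, *Myod1*) were named after their values were seen. Results for some genes of the lists are not reported here.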

Additional observations from a re-analysis of the deposited data

How the results depend on the processing

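No macrophage gene was called in any alternative run (0 each), but only 4 of the 10 could be tested with at least 10 counts in every library, and DESeq2 gave an adjusted p for 9. The number of called genes, 88, became 384 with DESeq2 and 48 with at least 10 counts in every library, lay between 58 (without Gli3Δ/Δ library 3) and 103 when each library was left out in turn, and was 79 with the replicate number as a block, of which 66 were among the 88. Gli3+/+ library 1 deviated most like Gli3Δ/Δ library 2 (correlation 0.307), not like its own number. Signs changed for 7 of the 10 genes, none of them called. With limma-voom the log2 fold change was 1.00 for *Mrc1* and 1.58 for *C1qb*, and with the block 0.49 and 1.35. Over the left-out libraries it ranged from -0.88 to 1.19 for *Mrc1*, -0.83 to 0.20 for *Cd14*, -0.74 to 0.69 for *Lyz2*, -0.46 to 2.17 for *Adgre1*, -0.86 to 1.27 for *Csf1r*, -0.42 to 2.12 for *C1qa* and -0.90 to 3.72 for *C1qb*. Without Gli3+/+ library 1 the sign turned for *Mrc1*, *Cd14*, *Lyz2* and *C1qb*, without Gli3Δ/Δ library 3 also for *C1qb*, and the signs of *Adgre1*, *Csf1r* and *C1qa* turned without others of the 6 libraries. The cause was not tested. *Cd68*, *C1qc* and *Spp1* kept their sign throughout. The median of the 10 genes was 0.26 with limma-voom, 0.34 with the block and 1.23 without Gli3+/+ library 1. The comparisons of ASC genotypes and of ASC over QSC, with their alternatives, were not run, because the ASC columns could not be matched to labels. Genes with fewer than 10 counts in a library limit what these depths can show, which holds for 6 of the 10. In alternatives chosen after seeing the data, the median ratio of the mean over all libraries to the QSC mean, 64.6 for the 10 genes, was 70.1 after division by the median ratio of all genes, 84.3 without Gli3+/+ library 1 and 53.9 to 68.5 without each of the other QSC libraries.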
